A study of Mus musculus with 28 samples.

Results

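The 49 genes described here are induced by interferons and were followed in lung homogenates of male, wild-type C57BL/6 mice, an inbred laboratory strain, aged 8 to 12 weeks. The genes were chosen by symbol as known interferon targets, with earlier results of these data known. Each symbol was matched through its Ensembl identifier to 1 of the 35880 Ensembl gene rows of the deposited count table. All 49 passed the filter on low counts, which left 14887 genes. The 28 libraries form 8 groups. Each day has a sham group, a group given carbon black particles (soot-like carbon, 10 mg/m3), a group given ozone, a reactive oxygen gas (2 ppm), and a co-exposure group given both at these levels. An exposure to either agent lasted 3 hours, and how long after the last one lungs were taken is not stated in the labels. The day 1 groups had 1 exposure and hold 4 libraries each, and the day 4 groups had 4 exposures and hold 3 libraries each, so day and number of exposures cannot be told apart. Whether every library is a separate mouse is not labelled, and p-values therefore speak of the spread between these libraries, which may be technical.

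Interferons are secreted proteins that switch on defence genes in the cells they reach. Type I interferons act through transcription factors that include STAT2 and IRF9, which bind the interferon-stimulated response element (ISRE) of their target genes. Type II interferon (IFN-gamma, made mainly by T and NK cells) acts through another element, the gamma-activated site (GAS). The IFIT, OAS and MX families are classical type I targets: IFIT proteins bind foreign RNA, OAS enzymes sense double-stranded RNA, and MX proteins are antiviral GTPases. The guanylate-binding proteins (GBP) and the immunity-related GTPases (IRG) attack vacuoles that hold microbes, and IFN-gamma is a strong inducer of both. By role the genes fall into 11 IFIT/OAS/MX genes, 13 GBP/IRG genes, 4 transcription factors, 3 RNA sensors, 4 genes of antigen processing and 14 other effectors.

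RefSeq promoter windows of build GRCm38.p6, from 250 bases before to 50 bases after a gene's start, were found for 36 of the 49 genes. The ISRE core (GAAA, any 2 bases, GAAA), searched on both strands, was present in 23 of these 36 genes (63.9%), against 3.4% of all 32851 windows of the same length. The GAS core TTCNNNGAA, searched the same way, was present in 13 of 36 (36.1%), against 8.3% of all windows. Among the 10 GBP/IRG genes with a window, 9 had the ISRE core and 6 the GAS core; among 8 IFIT/OAS/MX genes the numbers were 5 and 2. Counted by window rather than by gene, 24 of 41 windows of the list had the ISRE core (58.5%) and 13 of 41 the GAS core (31.7%). A match is a description of letters, not of a working site. The promoters of 7 genes are printed because their genes carry the differences described here. Ifit3 and Ifit1, on the same chromosome, moved in opposite directions after ozone at day 1. Rsad2 rose after carbon black at day 1, and Gbp7 and Igtp fell after ozone at day 1. Tgtp1 and Tgtp2 are near-identical copies. Each printed sequence is the 200 bases before the start, 5' to 3' on the gene's strand, with ISRE and GAS cores in capitals.

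Ifit3 (chr19:34583329-34583528, plus strand): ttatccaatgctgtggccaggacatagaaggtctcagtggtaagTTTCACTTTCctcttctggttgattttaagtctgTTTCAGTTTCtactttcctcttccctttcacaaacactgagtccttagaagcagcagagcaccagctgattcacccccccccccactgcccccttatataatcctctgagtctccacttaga
Ifit1 (chr19:34640689-34640888, plus strand): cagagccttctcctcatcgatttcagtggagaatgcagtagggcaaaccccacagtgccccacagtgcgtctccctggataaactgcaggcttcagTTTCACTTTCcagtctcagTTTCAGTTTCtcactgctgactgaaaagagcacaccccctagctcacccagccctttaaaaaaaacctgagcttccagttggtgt
Rsad2 (chr12:26456453-26456652, minus strand): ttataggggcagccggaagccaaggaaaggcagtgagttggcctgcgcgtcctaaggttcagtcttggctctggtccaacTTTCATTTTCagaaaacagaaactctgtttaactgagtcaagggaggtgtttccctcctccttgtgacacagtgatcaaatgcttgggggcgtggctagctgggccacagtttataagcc
Gbp7 (chr3:142530136-142530335, plus strand): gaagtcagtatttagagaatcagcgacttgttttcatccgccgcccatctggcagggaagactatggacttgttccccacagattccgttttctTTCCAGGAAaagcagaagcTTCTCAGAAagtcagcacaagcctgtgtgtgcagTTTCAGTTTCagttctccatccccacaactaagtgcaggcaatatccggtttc
Igtp (chr11:58199356-58199555, plus strand): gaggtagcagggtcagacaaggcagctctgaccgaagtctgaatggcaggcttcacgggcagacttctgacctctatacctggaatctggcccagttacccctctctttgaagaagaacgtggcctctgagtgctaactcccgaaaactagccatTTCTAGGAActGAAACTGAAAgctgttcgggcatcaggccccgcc
Tgtp1 (chr11:48992247-48992446, minus strand): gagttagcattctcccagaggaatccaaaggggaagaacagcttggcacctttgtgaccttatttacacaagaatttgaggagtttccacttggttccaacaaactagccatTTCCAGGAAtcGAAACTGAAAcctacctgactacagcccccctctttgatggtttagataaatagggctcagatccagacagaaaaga
Tgtp2 (chr11:49064213-49064412, minus strand): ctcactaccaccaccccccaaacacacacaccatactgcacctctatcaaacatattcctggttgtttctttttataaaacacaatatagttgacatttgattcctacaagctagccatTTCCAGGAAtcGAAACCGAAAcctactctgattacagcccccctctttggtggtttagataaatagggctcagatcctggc

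Ifit3 and Ifit1 each held 2 ISRE cores and no GAS core, so the letters searched do not set them apart. In Igtp, Tgtp1 and Tgtp2 a GAS core stood directly upstream of an ISRE core, and Gbp7 held 2 GAS cores and 1 ISRE core. No match of one motif overlapped a match of the other in the promoters shown. The Tgtp1 and Tgtp2 windows shared identical runs of at most 27 bases, although their transcripts are nearly the same.

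Each library held 5.14 M to 9.72 M estimated counts (median 7.19 M), and 3 counts, the limit that a count of 0 allows, equalled 0.309 to 0.584 CPM. CPM are counts relative to library size after TMM scaling, and this limit covers counting error only. Across genes, libraries of the same group correlated with Pearson r between 0.943 and 0.985. The labelled tissue was borne out by 9 lung epithelial genes, which summed to 39400 to 82400 CPM. Skeletal muscle genes summed to over 100 CPM in 4 libraries: 1320 in sham day 1 replicate 2, 575 in ozone day 1 replicate 2, 595 in co-exposure day 4 replicate 3 and 310 in carbon black day 4 replicate 3. Counts of called genes against sham are given with and without these libraries for ozone and co-exposure at day 1. The same is done for carbon black and co-exposure at day 4, but not for the other results. A homogenate averages all cells of the lung, so fewer cells of a type and less RNA per cell cannot be told apart.

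In the day 1 sham lungs the genes spanned a wide range of levels per kilobase of exon. Ifitm3, a membrane protein that blocks virus entry, was highest at 305.7 CPM per kb, followed by Ifi27l2a at 106.3 and the tether Bst2 at 75.1 CPM per kb. Ifit3, Gbp2 and the transcription factor Irf1 lay close together at 31.6, 30.9 and 28.7 CPM per kb. Lowest were Mx1 at 0.486, Oas3 at 0.560, Mx2 at 0.741 and Oasl1 at 0.833 CPM per kb. The gene annotation used lists Mx2 as a polymorphic pseudogene. Between the sham groups of day 4 and day 1 none of the 49 genes passed the threshold (edgeR's quasi-likelihood test, Benjamini-Hochberg adjusted p under 0.05 over all genes; 0% of all genes). DESeq2 also called none, and 3 reached an unadjusted p under 0.05. The largest of these differences was that of Rsad2, at 25.1 ± 5.6 CPM (SD, n = 4) at day 1 and 47.4 ± 22 CPM (SD, n = 3) at day 4.

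**Figure D1:**
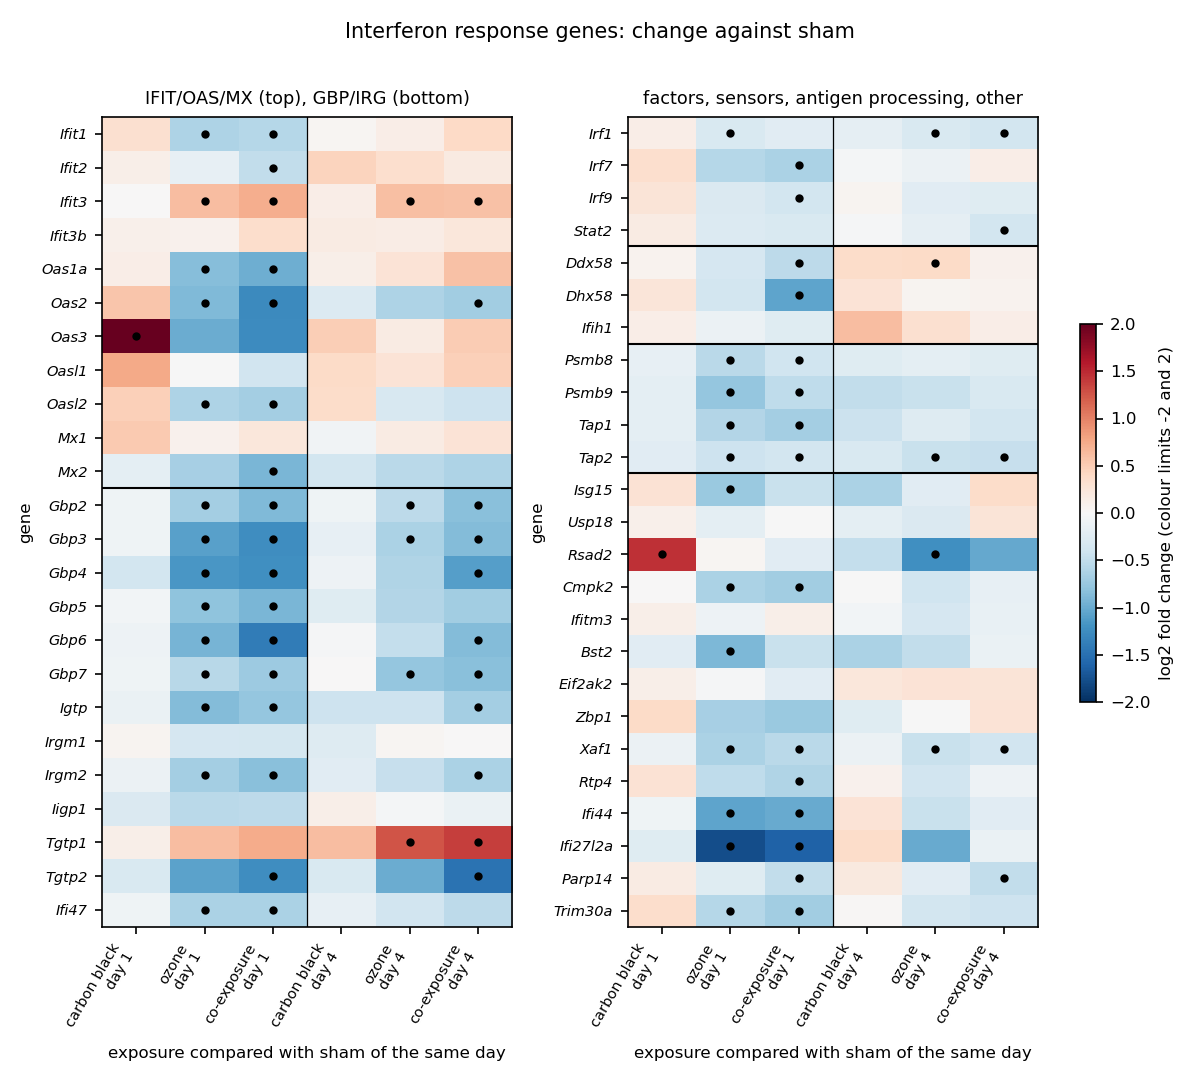
Log2 fold change against sham of the same day for the 49 genes (rows, by role) after carbon black, ozone and co-exposure at day 1 and day 4 (columns). Black dots mark an adjusted p under 0.05 in edgeR; the blue day 1 columns of ozone and co-exposure hold 25 and 31 lower calls, and Ifit3 is red with a dot at both days.

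A single ozone exposure was compared with sham to see how the gas alone changed these genes. Of the 49 listed genes 25 were lower and 1 was higher (edgeR), or 51% and 2.04% of the list. These shares describe the list only, since its genes were chosen with earlier results known. Of all genes tested, 11.4% passed, 4.63% lower and 6.81% higher. The median log2 fold change was -0.57, against -0.01 over all genes, and 38 of the 49 had an unadjusted p under 0.05. In 30 genes every ozone library lay below every sham library, which 9.23% of all genes did.

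Of the 13 GBP and IRG genes 9 fell. Gbp2 (ENSMUSG00000028270, chromosome 3, 142620602 to 142638008, GRCm38) stood at 68.8, 83.1, 74.6 and 84.8 CPM in the sham libraries and at 48.6, 54.8, 50.5 and 40.2 CPM after ozone. All 4 ozone libraries lay below all 4 sham libraries. Its log2 fold change was -0.68 ± 0.14 (SE; edgeR adjusted p = 0.00161). Gbp3, its neighbour on the chromosome, went from 37.8, 38.7, 30.4 and 34.5 CPM to 17.0, 19.2, 17.7 and 12.6 CPM, a change of -1.08 ± 0.18 (adjusted p = 0.000309, edgeR). Its highest ozone library thus stood well under its lowest sham library. Gbp4 (-1.17 ± 0.29), Gbp6 (-0.93 ± 0.23), Gbp5 (-0.81 ± 0.25) and Gbp7 (-0.56 ± 0.16) fell too, as did the IRG genes Igtp (-0.86 ± 0.21), Irgm2 (-0.68 ± 0.17) and Ifi47 (-0.64 ± 0.20). Not past the threshold were Irgm1 (-0.34 ± 0.14), Iigp1 (-0.54 ± 0.19), Tgtp2 (-1.07 ± 0.41) and Tgtp1 (0.61 ± 0.28).

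The IFIT/OAS/MX genes were split. Ifit1, Oas1a, Oas2 and Oasl2 fell, Ifit3 rose, and 6 of 11 did not pass. Ifit1 (ENSMUSG00000034459, chromosome 19, 34640871 to 34650009) went from 24.6, 28.3, 21.01 and 18.9 CPM in sham to 21.4, 15.3, 13.2 and 10.7 CPM after ozone. Replicate 1 of ozone lay inside the sham range and the others below it; the log2 fold change was -0.62 ± 0.18 (adjusted p = 0.0249, edgeR). Ifit3, on the same chromosome (ENSMUSG00000074896, 34583531 to 34588731), went the other way, from 52.4, 57.7, 50.7 and 60.1 CPM to 94.8, 83.7, 92.4 and 69.1 CPM. Each ozone library exceeded each sham library, and the change was 0.62 ± 0.14, or 1.54-fold (adjusted p = 0.00349, edgeR). Oas1a fell by 0.85 on the log2 scale, Oas2 by 0.89 and Oasl2 by 0.62. Ifit2 (-0.17 ± 0.15), Mx1 (0.08 ± 0.36), Oasl1 (-0.01 ± 0.28) and Ifit3b (0.09) did not pass. Oas3 (-0.99 ± 0.44) and Mx2 (-0.66 ± 0.29) did not pass either, although every ozone library of Mx2 lay below every sham library.

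All 4 genes of antigen processing fell. Psmb9 and Psmb8, catalytic subunits of the immunoproteasome, changed by -0.77 ± 0.15 and -0.54 ± 0.10, and Tap1 and Tap2, the subunits of the peptide transporter, by -0.58 ± 0.17 and -0.41 ± 0.08. Psmb8 stood at 50.1, 71.8, 60.3 and 49.7 CPM in sham and at a narrow 39.1, 40.7, 40.4 and 38.5 CPM after ozone, without overlap. Of the transcription factors only Irf1 passed (-0.31 ± 0.09), while Irf7, Irf9 and Stat2 lay between -0.57 and -0.27. The RNA sensors Ddx58 (RIG-I), Dhx58 (LGP2) and Ifih1 (MDA5) did not pass, at -0.33 ± 0.12, -0.37 ± 0.22 and -0.12 ± 0.13. Among the other effectors 7 of 14 fell. Ifi27l2a, a mitochondrial membrane protein, had the largest change of the list, -1.78 ± 0.45, from 43.0, 86.3, 34.9 and 32.8 CPM to 14.2, 12.9, 11.4 and 18.6 CPM. Its 4 ozone libraries were all under the lowest sham library. Adipose tissue genes moved with it: 5 of them summed to 69.8, 372, 57.3 and 58.3 CPM in the same sham libraries and to 23.3 to 40.1 CPM after ozone. Carbon black day 1 replicate 2, at 89.0 CPM of Ifi27l2a, had an adipose sum of 302 CPM, and carbon black day 4 replicate 3, at 70.5 CPM, had 167 CPM. The part of adipose tissue was not tested. Without sham replicate 2 the Ifi27l2a call was lost after ozone (edgeR adjusted p = 0.0589) and after co-exposure (0.0733), the highest values over the alternatives. The other effectors that fell were Bst2 (-0.90 ± 0.22), Ifi44 (-1.06 ± 0.27), Xaf1 (-0.63 ± 0.12), the nucleotide kinase Cmpk2 (-0.63 ± 0.14), Trim30a (-0.57 ± 0.15) and the ubiquitin-like modifier Isg15 (-0.75 ± 0.25).

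Of the 26 calls, 12 held in all 13 alternatives: Bst2, Cmpk2, Gbp2, Gbp3, Gbp6, Ifit3, Igtp, Oas2, Psmb8, Psmb9, Tap2 and Xaf1. The count was 15 without sham replicate 2, 13 without ozone replicate 4 and 14 without the libraries that held muscle transcripts, with Ifit3 the higher call and all others lower each time.

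**Figure D2:**
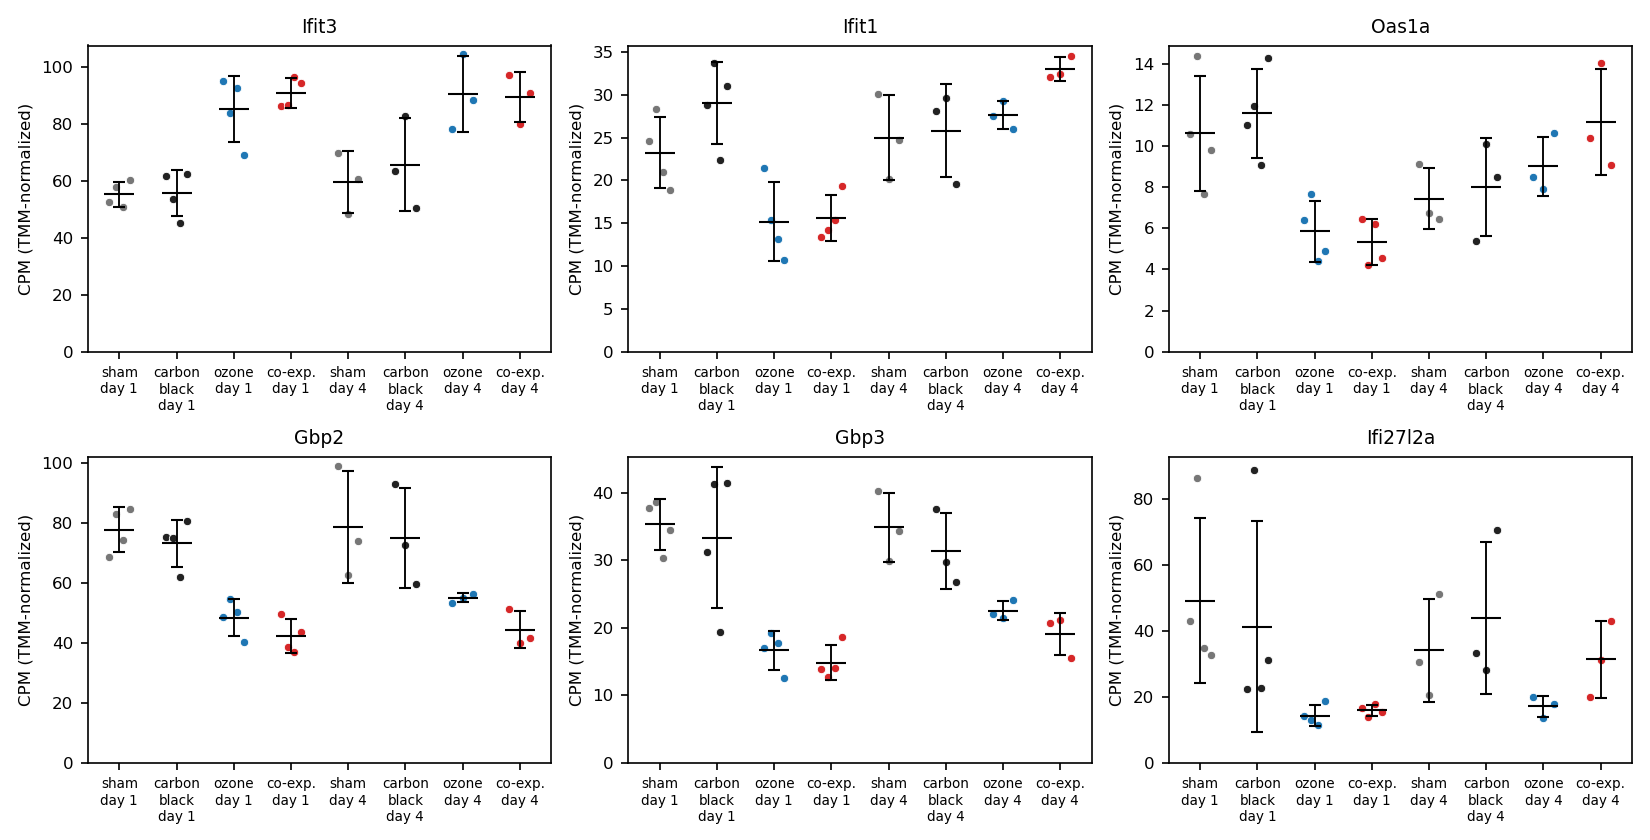
TMM-normalized CPM of 6 genes in each of the 28 libraries (points) by exposure and day, with the mean (bar) and SD (error bar) of each group. After ozone and co-exposure Ifit3 lies above sham and Gbp2 and Gbp3 lie below it at both days, while Ifit1 and Oas1a are below sham at day 1 only.

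Immune and endothelial marker genes moved with these changes. Of 13 T and NK cell genes 10 fell after ozone at day 1, and their sum was 41.7 to 55.2 CPM against 76.2 to 123 CPM in sham. Of 10 genes of conventional dendritic cells and MHC class II 6 fell, with sums of 966 to 1230 CPM against 1630 to 2530 CPM. Of 8 endothelial genes 5 fell, at sums of 2240 to 2860 against 3270 to 3710 CPM, and 1 of 6 B cell genes and 1 of 5 tested plasmacytoid dendritic cell genes fell. Of 7 alveolar macrophage genes 2 rose, with sums of 996 to 1200 against 799 to 1000 CPM, and 2 of 6 patrolling monocyte genes fell. Of all genes 11.4% were called in this comparison. No gene of these lists was at 0 in all libraries, and their part in the interferon gene result was not tested.

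Co-exposure at day 1 gave a similar picture in more genes, measured against the same sham libraries. Of the 49 genes 31 fell and 1 rose, with 19.2% of all genes past the threshold, 9.09% lower and 10.1% higher. The median log2 fold change was -0.57, against 0 over all genes, and 40 had an unadjusted p under 0.05. In 30 genes all co-exposure libraries lay below all sham libraries, as in 10.4% of all genes. Of 13 GBP/IRG genes 10 fell. Gbp6 changed most of these, by -1.40 ± 0.24 (adjusted p = 0.000186, edgeR), from 37.8, 47.3, 30.5 and 32.6 CPM to 13.5, 14.9, 15.0 and 12.8 CPM. The co-exposure libraries were tightly grouped and all below sham. Gbp3 (-1.25 ± 0.19), Gbp4 (-1.22 ± 0.29), Gbp5 (-0.91 ± 0.26), Gbp2 (-0.88 ± 0.14), Irgm2 (-0.84 ± 0.17), Igtp (-0.77 ± 0.21) and Gbp7 (-0.73 ± 0.16) fell as well.

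Of the 11 IFIT/OAS/MX genes 6 fell after this co-exposure: Oas2 (-1.27 ± 0.23), Oas1a (-0.98 ± 0.23), Mx2 (-0.92 ± 0.30), Oasl2 (-0.68 ± 0.17), Ifit1 (-0.57 ± 0.18) and Ifit2 (-0.50 ± 0.16). Ifit3 stood at 86.3, 86.4, 96.2 and 94.3 CPM, above every sham library, and rose by 0.72 ± 0.14 (adjusted p = 0.000542, edgeR). Of the 3 RNA sensors 2 fell. Dhx58 went from 7.54, 9.05, 6.79 and 6.99 CPM to 3.68, 3.33, 4.51 and 2.99 CPM (-1.06 ± 0.23), with no overlap, and Ddx58 changed by -0.53 ± 0.12. All 4 antigen processing genes fell again, between -0.68 (Tap1) and -0.37 (Tap2), along with Irf7 (-0.63 ± 0.20), Irf9 (-0.36 ± 0.10) and 7 of 14 other effectors, among them Ifi27l2a (-1.62 ± 0.45) and Ifi44 (-1.01 ± 0.27). Of the 32 calls, 20 held in all 13 alternatives. The count was 20 without sham replicate 2 and 21 without the libraries with muscle transcripts, again with Ifit3 as the single higher call. All 13 T and NK cell genes fell (sum 27.6 to 41.4 CPM), and so did 5 of 6 for B cells, 3 of 5 for plasmacytoid and 5 of 10 for conventional dendritic cells with MHC class II, and 6 of 8 for endothelium. In either direction, 3 of 6 patrolling monocyte, 2 of 5 classical monocyte and 2 of 7 alveolar macrophage genes were called. So were 3 of 9 lung epithelial and 0 of 8 neutrophil genes. Of all genes 19.2% were called in this comparison. The part of these cells was not tested.

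After 4 ozone exposures the list was called about as often as other genes. Of 49 genes 10 passed (20.4%), while 20.7% of all genes did. Of the 49, 7 fell, or 14.3% of the list against 9.07% of all genes, and 3 rose, against 11.7%. The median log2 fold change was -0.31. Gbp2 stood at 53.5, 55.2 and 56.5 CPM against 99.2, 62.7 and 74.2 CPM in sham, without overlap (-0.52 ± 0.16, adjusted p = 0.0199, edgeR). Gbp7 (-0.77 ± 0.19), Gbp3 (-0.63 ± 0.21), Tap2 (-0.45 ± 0.10), Xaf1 (-0.44 ± 0.14), Irf1 (-0.31 ± 0.11) and Rsad2 (-1.22 ± 0.42) were the other genes that fell. For Rsad2, viperin, the libraries overlapped: sham stood at 68.4, 48.9 and 24.8 CPM and ozone at 20.7, 25.6 and 13.9 CPM. Sham replicates 1 and 2 were the high ones. Erythrocyte genes moved with Rsad2, with sums of 30600, 22100 and 11100 CPM in these sham libraries and 8480, 9050 and 5040 CPM after ozone, and their part was not tested. The Rsad2 call held in 4 of 11 alternatives, with adjusted p up to 0.198 (edgeR).

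At day 4 of ozone 3 genes rose. Ifit3 was at 78.0, 104 and 88.4 CPM against 69.7, 48.2 and 60.5 CPM (0.60 ± 0.16), and Ddx58 at 72.4, 75.2 and 76.0 CPM against 62.0, 56.6 and 52.0 CPM (0.39 ± 0.14). In both, each ozone library exceeded each sham library. Tgtp1, the third, is described with its copy Tgtp2. No other IFIT, OAS or MX gene passed, and 8 of these 11 genes had a fold change above 0. Gbp7, Tap2 and Tgtp1 were called in all 11 alternatives. The count fell to 4 without ozone replicate 1, 5 without ozone replicate 2 or sham replicate 1, and 6 without ozone replicate 3 or sham replicate 3. It was 16, 6 higher and 10 lower, when only the compared groups were fitted.

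Co-exposure at day 4 called 16 genes (32.7%), near the 34.1% of all genes. Of these, 14 fell, or 28.6% against 16.3% of all genes, and 2 rose, against 17.7%. The GBP/IRG family held 8 of the 14: Gbp2 (-0.83 ± 0.16), Gbp7 (-0.83 ± 0.19), Gbp3 (-0.87 ± 0.21), Gbp4 (-1.10 ± 0.34), Gbp6 (-0.86 ± 0.27), Irgm2 (-0.64 ± 0.20), Igtp (-0.68 ± 0.24) and Tgtp2. Gbp2 measured 51.5, 40.04 and 41.7 CPM, again below all sham libraries of its day. Tap2 (-0.46 ± 0.10), Irf1 (-0.36 ± 0.11), Stat2 (-0.36 ± 0.13), Parp14 (-0.49 ± 0.17), Xaf1 (-0.38 ± 0.14) and Oas2 (-0.70 ± 0.25) fell as well. Ifit3 rose, at 97.02, 79.9 and 90.8 CPM (0.58 ± 0.16, adjusted p = 0.00534, edgeR), all above sham. Gbp2, Gbp3, Gbp7, Ifit3, Tap2 and Tgtp1 were called in all 11 alternatives. Without sham replicate 1 the count was 8 and without co-exposure replicate 3 it was 6. It was 9 without the libraries with muscle transcripts and 10 with only the compared groups fitted.

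Marker genes differed at day 4 as well. T and NK cell genes summed to 41.3 to 54.2 CPM after ozone and 30.8 to 43 CPM after co-exposure, against 84.3 to 88.9 CPM in sham, with 8 and 10 of 13 lower. B cell genes summed to 76.5 to 114 and 59.3 to 89 CPM against 138 to 218 CPM, with 2 and 6 of 6 lower. Erythrocyte genes summed to 5040 to 9050 and 3960 to 6910 CPM against 11100 to 30600 CPM, with 5 and 6 of 7 lower. Of the 8 endothelial genes 7 and 8 were lower, and 3 and 6 of the 10 listed for dendritic cells and MHC class II. Other lists had higher sums after ozone. Alveolar macrophage genes summed to 1270 to 1580 CPM against 545 to 785 CPM in sham, with 2 of 7 genes (28.6%) called higher. Classical monocyte genes summed to 1040 to 1310 against 378 to 594 CPM, with 1 of 5 (20%) called higher. Of all genes 20.7% were called after ozone at day 4. After co-exposure the ranges were wider, 694 to 1750 CPM for alveolar macrophages (3 of 7 higher, 1 lower) and 567 to 1510 CPM for classical monocytes (1 of 5 higher). Of all genes 34.1% were called there. Patrolling monocyte genes summed to 724 to 820 CPM after ozone and 369 to 762 CPM after co-exposure. In sham they summed to 745 to 1160 CPM, and 2 of 6 were called in each comparison. Lung epithelial genes summed to 41900 to 46300 CPM after ozone and 39400 to 66600 CPM after co-exposure, against 64100 to 76900 CPM. The part of these cells in the interferon gene values was not tested.

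The day 1 and day 4 comparisons share no library, so their calls can be set side by side. After ozone 6 genes fell at both days (Gbp2, Gbp3, Gbp7, Irf1, Tap2 and Xaf1), 24% of the 25 that fell at day 1 and 85.7% of the 7 that fell at day 4. After co-exposure 12 fell at both, 38.7% of 31 and 85.7% of 14. Over all genes tested, those that fell at both days with ozone were 40.3% of the day 1 and 20.6% of the day 4 calls, and with co-exposure 51.4% and 28.6%. Few genes passed a test of whether the change differed between days, although most differences with ozone and co-exposure lay above 0. With ozone 42 of the 49 did (median 0.30, against 0 over all genes), and with co-exposure 39 (median 0.31, against 0). In 7 and 12 genes the unadjusted p was under 0.05 (edgeR). With ozone, Ddx58 passed, with a change 0.72 ± 0.18 higher at day 4 than at day 1 (4.24% of all genes passed, 2.36% higher and 1.88% lower). With co-exposure 4 passed, all higher at day 4: Oas1a by 1.56 ± 0.34, Dhx58 by 1.13 ± 0.34, Ifit1 by 0.97 ± 0.27 and Ddx58 by 0.62 ± 0.18 (10.2% of all genes, 5.44% higher and 4.78% lower). None of the 13 GBP/IRG genes passed this test in edgeR for either exposure, and none had an unadjusted p under 0.05. Their differences still lay mostly above 0, in 12 of 13 with ozone (median 0.38) and 11 of 13 with co-exposure (median 0.19). For the IFIT/OAS/MX genes these were 10 of 11 (median 0.28) and 9 of 11 (median 0.56). Ifit1 illustrates a difference between days. After co-exposure it was at 13.4, 14.2, 15.4 and 19.4 CPM at day 1 and at 32.03, 32.4 and 34.5 CPM at day 4. Sham at day 4 had 30.1, 20.1 and 24.7 CPM. At day 1, 3 of its 4 co-exposure libraries lay below the sham range, and at day 4 all 3 lay above it, although the day 4 change of 0.40 ± 0.20 was not called (adjusted p = 0.124, edgeR).

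Of the genes that rose, Ifit3 and Tgtp1 have near-identical copies, and short reads can be shared between copies. Of all 51-base stretches of Ifit3 transcripts, 50.8% also occurred in another gene, mainly Ifit3b, and of those of Tgtp1 and Tgtp2, 81.1% and 86.4%. Ifit3b itself did not pass in these 4 comparisons, at 0.09 to 0.35. When the counts of Ifit3 and Ifit3b were summed, the rise was called in all 4: 0.51 ± 0.13 for ozone at day 1, 0.63 ± 0.13 for co-exposure at day 1, and 0.50 ± 0.15 for both at day 4, with edgeR adjusted p from 0.00107 to 0.0175. The sum was 104.5 ± 15.5 CPM (SD, n = 4) after ozone at day 1 and 73.5 ± 5.6 CPM in sham.

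Tgtp1 and Tgtp2, IRG GTPases next to each other on chromosome 11, showed another pattern. Tgtp1 at day 4 stood at 12.8, 5.69 and 11.6 CPM in sham, at 21.01, 24.8 and 27.2 CPM after ozone (1.26 ± 0.33) and at 30.0, 26.8 and 22.2 CPM after co-exposure (1.38 ± 0.33), without overlap with sham. Tgtp2 stood at 43.3, 24.1 and 22.9 CPM in sham, at 20.9, 16.8 and 7.33 CPM after ozone (-1.0 ± 0.47, not called) and at 17.2, 12.4 and 2.88 CPM after co-exposure (-1.47 ± 0.49, called). The sum of both genes was 40.1 ± 14 CPM in sham, 39.4 ± 4.2 CPM after ozone and 37.2 ± 11.2 CPM after co-exposure (SD, n = 3), with log2 fold changes of -0.03 ± 0.27 and -0.11 ± 0.27. The share of Tgtp1 in the pair was 19.1 to 33.6% in day 4 sham, 50.2 to 78.8% after ozone and 63.6 to 88.5% after co-exposure. At day 1 it was 20 to 45.1% in sham, 51.4 to 65.4% after ozone and 52.6 to 76.7% after co-exposure, whereas carbon black gave 34.1 to 41.9%. The 2 genes are therefore reported as uncertain one by one.

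**Figure D3:**
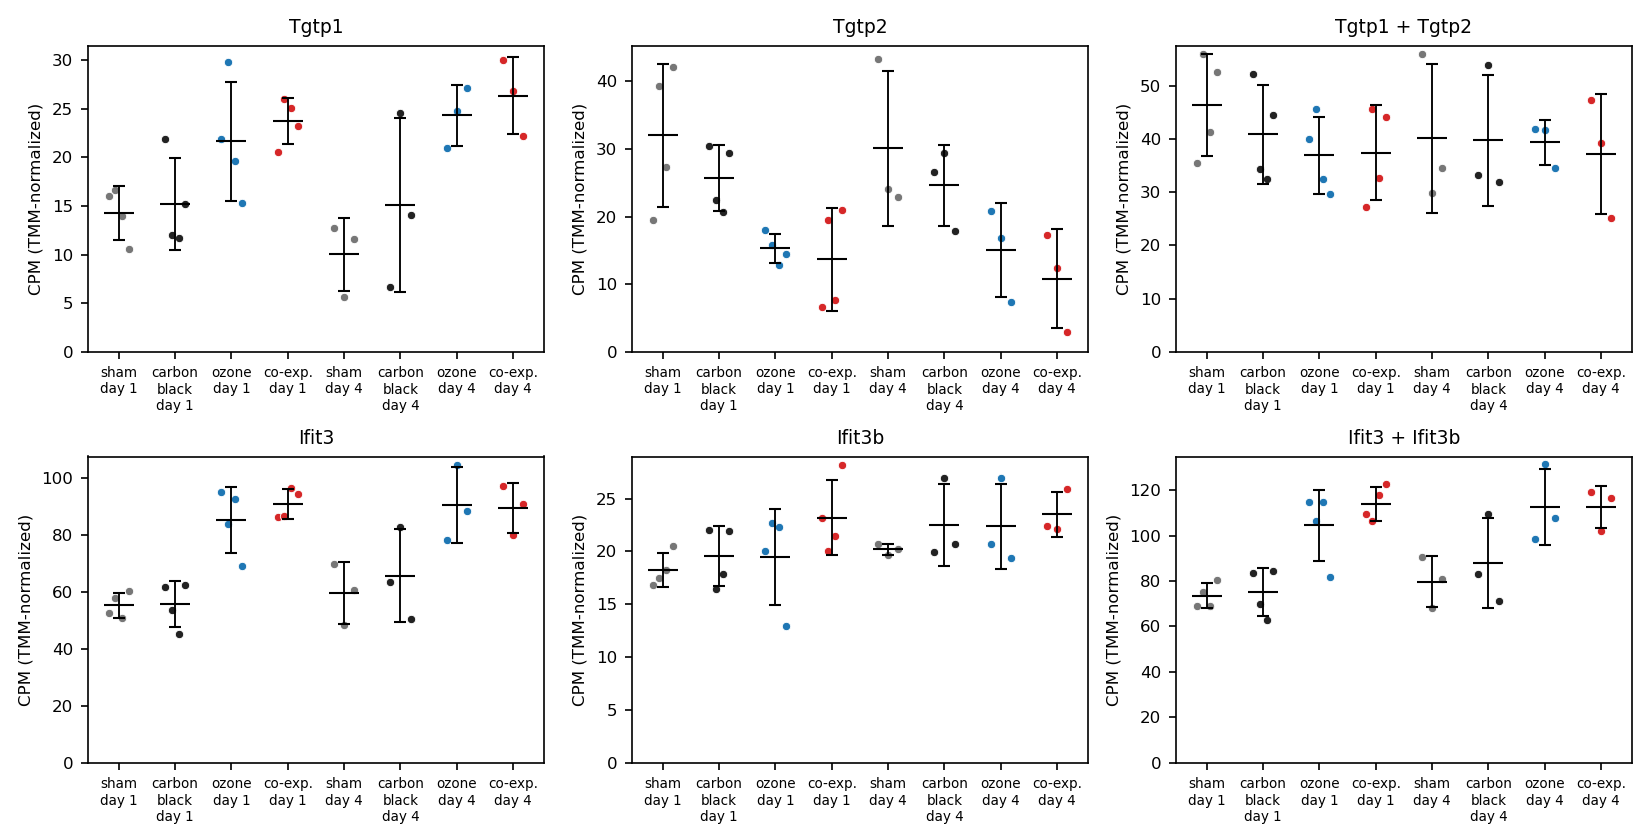
TMM-normalized CPM of Tgtp1, Tgtp2 and their sum (top) and of Ifit3, Ifit3b and their sum (bottom) in each library (points), with group mean and SD. The Tgtp1 and Tgtp2 panels move apart after ozone and co-exposure while the sum stays between 37.2 and 40.1 CPM on average at day 4; the Ifit3 sum rises with Ifit3.

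Gbp6 and Oas1a share sequence with another gene too, 70.5% and 57% of their stretches. With Gm43302 added, Gbp6 changed at day 1 by -1.03 ± 0.22 with ozone and by -1.47 ± 0.23 with co-exposure. With Oas1g added, Oas1a changed by -0.72 ± 0.24 and -0.79 ± 0.24. Both sums passed in both comparisons.

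Carbon black at day 1 left most of the list near sham. Of 49 genes 2 rose (4.08%, against 1.66% of all genes, 1.57% higher and 0.0873% lower), none fell, and the median log2 fold change was 0.10. In 8 genes the unadjusted p was under 0.05, and in 1 gene all carbon black libraries exceeded all sham libraries, as in 4.73% of all genes. Oas3, an enzyme that makes the messenger activating RNase L, stood at 2.91, 7.42, 2.31 and 3.19 CPM in sham and at 11.3, 6.20, 24.9 and 31.9 CPM after carbon black. Replicate 2 lay inside the sham range and the others above it. The log2 fold change was 2.24 ± 0.38, or 4.72-fold (adjusted p = 0.00211, edgeR). Rsad2 stood at 28.8, 30.9, 19.0 and 22.0 CPM in sham and at 24.5, 70.7, 81.6 and 101 CPM after carbon black, with replicate 1 inside the sham range (1.46 ± 0.36, adjusted p = 0.036, edgeR).

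Neither call held throughout. Oas3 passed in 12 of 13 alternatives and was lost with only the compared groups fitted (edgeR adjusted p = 0.184, the highest over its alternatives). Rsad2 passed in 4 of 13, with adjusted p up to 0.208. Neutrophil genes moved in these libraries: all 8 rose, and their sum was 993, 138, 4420 and 2400 CPM in carbon black replicates 1 to 4, against 43.3 to 247 CPM in sham. Of classical monocyte genes 2 of 5, of patrolling monocyte genes 1 of 6 and of erythrocyte genes 2 of 7 rose as well. The library lowest in neutrophil genes was also lowest in Oas3, but it had Rsad2 at 70.7 CPM. Replicate 1, the lowest in Rsad2, was lowest in erythrocyte genes, at 8940 CPM against 16700 to 30900 CPM in the other carbon black libraries and 9680 to 12700 CPM in sham. Alveolar macrophage genes summed to 1190 to 1650 CPM against 799 to 1000 CPM in sham, with none of 7 called. The part of these cells in either gene was not tested. At day 4 of carbon black none of the 49 genes passed in edgeR and 1 in DESeq2, with 0.208% of all genes past the threshold (0.161% higher, 0.047% lower) and 9 genes at an unadjusted p under 0.05. The count was 2 without carbon black replicate 3, and the same number without the libraries with muscle transcripts. Without overlap between groups, 3 genes were higher and 2 lower, against 7.93% and 7.65% of all genes. All 4 antigen processing genes lay below 0 with an unadjusted p under 0.05 (edgeR). Their median log2 fold change was -0.37, against -0.36 with ozone and -0.33 with co-exposure at day 4. The 3 RNA sensors lay above 0, 2 of them under 0.05, with a median of 0.37, against 0.32 and 0.09. The median of all 49 genes was -0.04. The difference of the carbon black change between days passed for none of the 49 (edgeR, 6 at an unadjusted p under 0.05). Of all genes 0.094% passed that test, 0.00672% higher and 0.0873% lower. Oas3 at day 4 was at 5.19, 5.74 and 5.40 CPM against 4.81, 4.00 and 2.90 CPM in sham, all above sham, with a change of 0.49 ± 0.46.

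**Figure D4:**
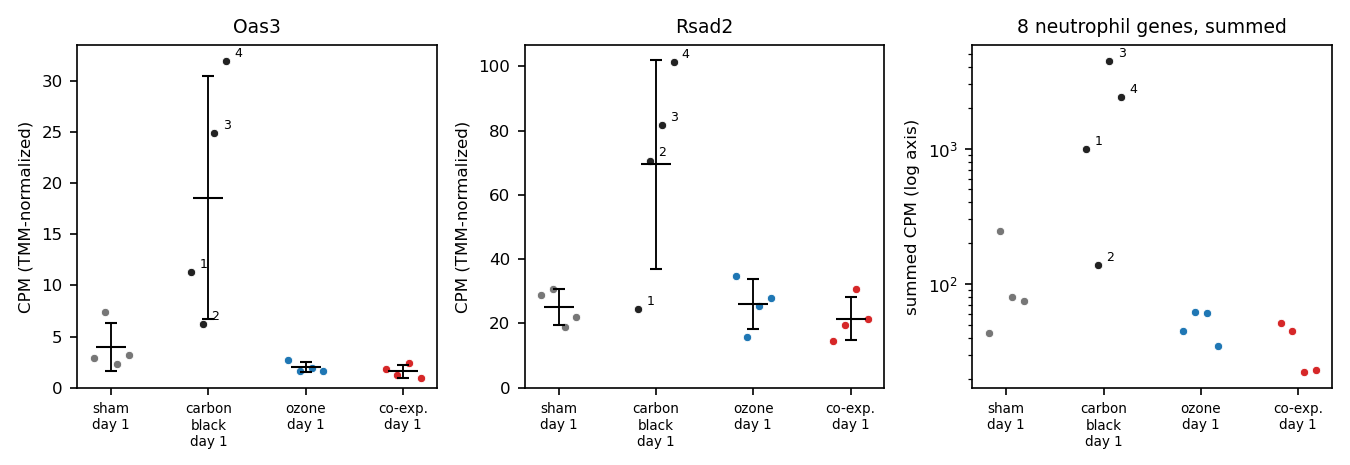
Oas3 and Rsad2 (TMM-normalized CPM) and the summed CPM of 8 neutrophil genes (log axis) in the day 1 libraries (points, carbon black replicates numbered), with group mean and SD for the 2 genes. Carbon black replicates 3 and 4 are high in all 3 panels; replicate 2 is low in Oas3 and neutrophil genes and replicate 1 is low in Rsad2.

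Between co-exposure and ozone alone none of the 49 genes passed. This held at day 1 and day 4 in edgeR and DESeq2, 0% of all genes did in edgeR, and 2 and 3 members had an unadjusted p under 0.05. DESeq2 gave no adjusted p for 29 of the 49 at day 1 and for 3 at day 4. The differences ranged from -0.69 to 0.45 at day 1 (median -0.07) and from -0.50 to 0.87 at day 4 (median -0.02). The widest at day 1 was that of Dhx58 (-0.69 ± 0.24, adjusted p = 0.211, edgeR), and at day 4 the smallest p belonged to Usp18, the protease that removes ISG15 (0.54 ± 0.17, adjusted p = 0.106, edgeR). Without co-exposure replicate 1, 2 genes passed at day 4. Against carbon black alone, co-exposure at day 1 was lower in 36 and higher in 1 of the 49 (25.9% of all genes passed, 12.7% lower), led by Oas2 (-1.83 ± 0.22) and Oas3 (-3.50 ± 0.43). At day 4, 9 were lower and 3 higher (24.5%, against 38.2% of all genes), the higher ones being Isg15 (0.99 ± 0.28), Ifit3 (0.45 ± 0.16) and Usp18 (0.45 ± 0.17). This count was 6 with only the compared groups fitted or without carbon black replicate 1, and 5 without co-exposure replicate 3.

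The contrast of the families was taken within each library, as the mean log2 CPM of the 11 IFIT/OAS/MX genes minus that of the 13 GBP/IRG genes. The IFIT/OAS/MX mean was 3.42 ± 0.23 in day 1 sham, 3.08 ± 0.20 after ozone and 2.97 ± 0.09 after co-exposure (SD, n = 4). The GBP/IRG mean was 5.26 ± 0.19, 4.59 ± 0.23 and 4.49 ± 0.20. Both families were thus lower at day 1. At day 4 the IFIT/OAS/MX mean was 3.41 ± 0.16 in sham, 3.47 ± 0.06 after ozone and 3.53 ± 0.05 after co-exposure (SD, n = 3), and the GBP/IRG mean 5.14 ± 0.33, 4.81 ± 0.13 and 4.58 ± 0.38. The first family lay within 1 SD of sham. The GBP/IRG libraries overlapped sham in both exposures: sham stood at 5.52, 4.90 and 5.01, ozone at 4.92, 4.85 and 4.67, and co-exposure at 4.94, 4.60 and 4.18.

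The within-library difference was -1.84 ± 0.18 in day 1 sham and -1.74 ± 0.17 in day 4 sham. In every comparison with sham it shifted toward the IFIT/OAS/MX genes: by 0.55 with carbon black, 0.33 with ozone and 0.32 with co-exposure at day 1, and by 0.21, 0.39 and 0.69 at day 4. The day 4 values were -1.50, -1.32 and -1.22 after ozone and -1.44, -1.02 and -0.68 after co-exposure, all above the 3 sham libraries at -1.93, -1.67 and -1.61. At day 1 the ozone libraries, at -1.57 to -1.47, also lay above the sham range of -1.98 to -1.61, as did the carbon black libraries, at -1.55 to -0.99, while the co-exposure libraries overlapped it. The score is a description, since its genes were chosen with results known, and it has no p. With the median over genes in place of the mean the shift was 0.13 for ozone and -0.12 for co-exposure at day 1, so the day 1 contrast depends on how genes are averaged. By counts, 4 and 9 genes of the families fell after ozone at day 1, 6 and 10 after co-exposure at day 1, 0 and 3 after ozone at day 4, and 1 and 8 after co-exposure at day 4. The median log2 fold changes of the families were -0.62 and -0.68 after ozone and -0.57 and -0.84 after co-exposure at day 1. At day 4 they were 0.16 and -0.47, and 0.28 and -0.69. Whether the families' responses differ was not tested.

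**Figure D5:**
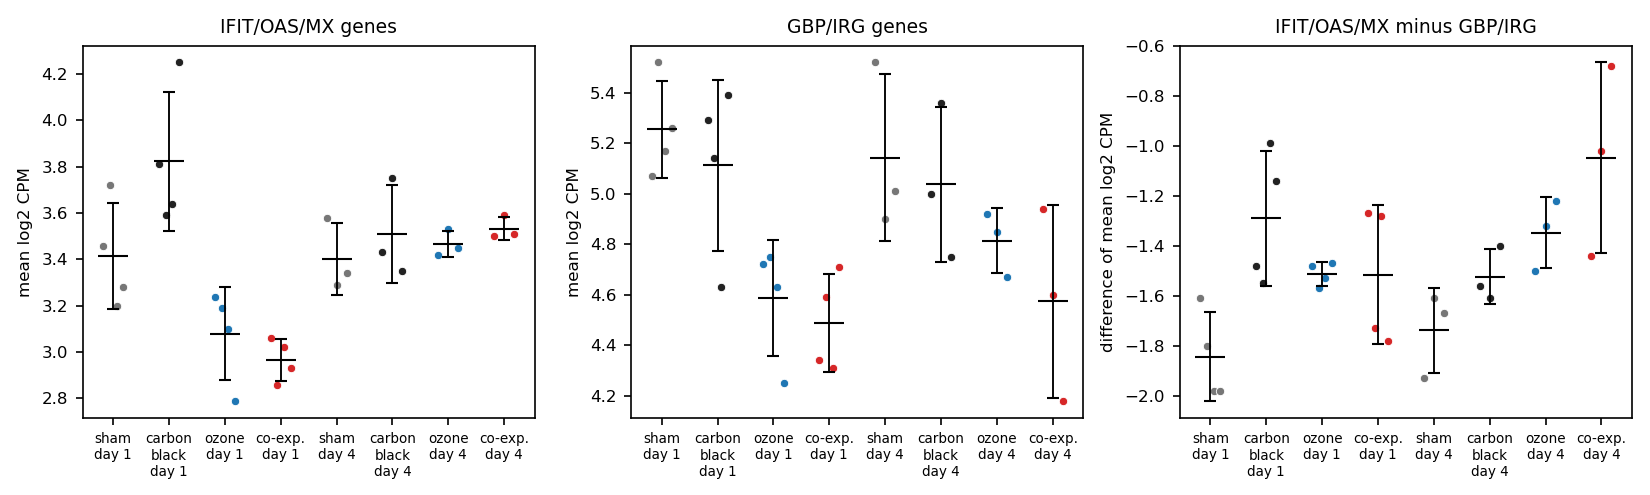
Mean log2 CPM of the 11 IFIT/OAS/MX genes (left), of the 13 GBP/IRG genes (middle) and their difference (right) in each library (points), with group mean and SD; axes do not start at 0. At day 4 of ozone and co-exposure the left panel is near the sham mean of 3.41, the middle panel has lower means that overlap sham, and the difference is above all sham libraries.

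Group means of further genes were taken over all 8 groups. Oasl2 was at 49.6 ± 9.5, 68.7 ± 16, 32.3 ± 3.4 and 30.9 ± 3.8 CPM in sham, carbon black, ozone and co-exposure at day 1 (SD, n = 4), and at 46.5 ± 7.0, 60.4 ± 20, 37.2 ± 5.2 and 35.1 ± 2.9 CPM at day 4 (SD, n = 3). Gbp4 was at 46.0 ± 8.9, 35.6 ± 13, 20.4 ± 3.2 and 19.8 ± 5.1 CPM, then 41.6 ± 13, 39.1 ± 14, 27.5 ± 7.9 and 19.3 ± 6.9 CPM. Igtp was at 35.3 ± 7.0, 32.2 ± 6.0, 19.5 ± 3.8 and 20.7 ± 3.3 CPM, then 32.03 ± 10.7, 23.8 ± 7.8, 24.1 ± 3.8 and 19.97 ± 3.8 CPM. In these 3 genes ozone and co-exposure were the low groups at day 1, by more than the SD of sham.

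Some genes of the same families were not called. Mx1, the lowest of the 49 per kilobase in day 1 sham, had group means from 1.84 ± 0.46 CPM in day 1 sham to 2.77 ± 0.81 CPM at day 4 of co-exposure, and no comparison with sham called it. Irgm1, a regulator of the other IRG proteins, was at 40.6 ± 6.2 CPM in day 1 sham, 32.1 ± 3.6 and 31.9 ± 2.9 CPM after ozone and co-exposure, and 40.6 ± 1.3 and 39.6 ± 7.0 CPM after these at day 4. Iigp1 was at 45.9 ± 8.2 CPM in day 1 sham and 31.5 ± 4.3 CPM after ozone, and at 46.7 ± 8.1 and 45.4 ± 3.6 CPM in the same groups at day 4. Neither Irgm1 nor Iigp1 was called against sham in any of the 6 comparisons.

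Among the factors, Irf1 had group means from 92.2 ± 9.9 CPM (ozone, day 1) to 125 ± 9.2 CPM (carbon black, day 1), and Stat2 from 40.01 ± 0.82 CPM (co-exposure, day 4) to 57.5 ± 9.5 CPM (carbon black, day 1). Irf7, which amplifies type I interferon production, ranged from 12.0 ± 2.5 CPM after co-exposure to 23.3 ± 7.9 CPM after carbon black, both at day 1. Isg15 was lowest after ozone at day 1 (7.02 ± 2.1 CPM) and highest after co-exposure at day 4 (18.7 ± 2.4 CPM), and in both co-exposure comparisons with sham it was not called. Psmb8 and Tap1 had their lowest means after ozone and co-exposure at day 1, 39.7 ± 1.0 and 33.7 ± 3.4 CPM, and stood at 55.8 ± 2.3 and 44.8 ± 2.1 CPM after ozone at day 4.

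The genes upstream of the list were examined next. Of 10 interferon genes, 9 had no count in any of the 28 libraries (Ifnb1, Ifna1, Ifna2, Ifna4, Ifna5, Ifnk, Ifne, Ifnl2 and Ifnl3), which allows at most 0.0146 CPM over all libraries together. Ifng had 27 counts in 19 libraries, with at most 2 in any of them, so no difference was detectable at this depth. Of 6 receptor genes, Ifngr1, the ligand-binding chain for IFN-gamma, fell with co-exposure at day 1 (-0.27 ± 0.10), ozone at day 4 (-0.44 ± 0.11) and co-exposure at day 4 (-0.56 ± 0.11). Ifnar2 fell with co-exposure at day 4 (-0.34 ± 0.13), and Ifngr2 rose with ozone at day 4 (0.28 ± 0.09). With co-exposure the receptor calls were 16.7% of the 6 at day 1 and 33.3% at day 4. Of all genes 19.2% and 34.1% were called there, so these shares were those of genes in general. With ozone at day 4 the share was 33.3%, or 2 of 6 genes, against 20.7% of all genes.

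Among 20 signal transduction genes, 4 rose and 3 fell with ozone at day 1, 4 rose and 6 fell with co-exposure at day 1, 4 rose and none fell with ozone at day 4, and 3 rose and 4 fell with co-exposure at day 4. These were 35%, 50%, 20% and 35% of the list, against 11.4%, 19.2%, 20.7% and 34.1% of all genes, so the day 4 shares were those of genes in general. Socs3, a feedback inhibitor of cytokine receptors, had the smallest p each time. It went from 47.9, 46.9, 35.4 and 36.9 CPM in sham to 117, 102, 96.6 and 96.6 CPM after ozone at day 1, without overlap (1.30 ± 0.15), and rose by 1.41 ± 0.15, 0.85 ± 0.18 and 0.88 ± 0.18 in the other 3 comparisons. Tmem173, which encodes the DNA-sensing adaptor STING, rose in all 4 comparisons, between 0.56 and 0.73.

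Genes of MHC class I presentation were read beside antigen processing. Of 12, 8 fell with ozone at day 1, among them Psmb10 (-0.55 ± 0.10), H2-T23 (-0.56 ± 0.13) and H2-K1 (-0.50 ± 0.12), and 7 with co-exposure, among them the class I transactivator Nlrc5 (-1.05 ± 0.20). At day 4, 3 fell with ozone, and 5 fell and 1 rose (Psme2, 0.46 ± 0.14) with co-exposure. The shares called were 66.7% and 58.3% at day 1, against 11.4% and 19.2% of all genes. At day 4 they were 25% and 50%, against 20.7% and 34.1%, so the day 4 ozone share lay near that of all genes. Cxcl10, a chemokine that attracts T cells, stood at 2.52, 1.38 and 2.79 CPM in day 4 sham and at 6.54, 5.68 and 6.62 CPM after co-exposure, without overlap (1.46 ± 0.40, adjusted p = 0.00619, edgeR). Cxcl9 did not pass in any comparison with sham, and Cxcl11 was removed by the low-count filter.

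Of 41 further interferon-induced genes tested, 2 rose and 10 fell with ozone at day 1, 2 and 14 with co-exposure at day 1, 4 and 6 with ozone at day 4, and 4 and 11 with co-exposure at day 4. These were 29.3%, 39%, 24.4% and 36.6% of the 41, against 11.4%, 19.2%, 20.7% and 34.1% of all genes, so that the day 4 shares lay near those of all genes. Slfn9 rose most, by 2.27 ± 0.33 in both day 1 comparisons, 2.76 ± 0.37 with ozone and 3.04 ± 0.37 with co-exposure at day 4. It stood at 5.65, 6.15 and 5.37 CPM in day 4 sham and at 54.2, 40.04 and 46.5 CPM after co-exposure, far apart. Lap3, an aminopeptidase, rose in all 4 as well, between 0.61 and 0.85. Sp100, a nuclear body protein, and Ifi203, of a family of DNA sensors, fell in all 4. With carbon black at day 1, Slfn2 (0.79 ± 0.18) and Slfn1 (1.95 ± 0.50) rose. Slfn1 stood at 19.1, 5.49, 39.6 and 40.03 CPM in carbon black replicates 1 to 4 and at 3.84, 11.4, 6.92 and 4.91 CPM in sham. Replicate 2, inside the sham range, was also the one with the lowest neutrophil sum, 138 CPM against 993, 4420 and 2400 CPM in the others, and the part of neutrophils was not tested.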

How the data were processed

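Poly(A) RNA of lung homogenates was sequenced with a stranded mRNA kit as paired 51-base reads, and the authors quantified it with Salmon 1.1.0, per the labels' protocols. The submitters' processing notes also name mm10, R 3.6.3 and DESeq2, with roles not given in the sources used here. The deposited values are estimated counts per gene, 17.7% of them not whole, and were rounded. Symbols and positions came from GENCODE M21 (GRCm38), which held 35505 of the 35880 identifiers. The 49 members and all lists were chosen with earlier results of these data known.

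Counts were filtered with filterByExpr (14887 genes, 99.9% of counts), scaled by TMM and tested in edgeR 4.0.16 (R 4.3.3) with the robust quasi-likelihood F test, all 28 libraries in 1 fit with a term per group and 20 residual degrees of freedom. P-values were adjusted over all genes (Benjamini-Hochberg, threshold 0.05). DESeq2 1.42.0 was an alternative, beside RLE scaling, no filter, a replicate block, fits of the compared groups only and leaving out each library. On simulated data with 14720 genes, 50% and 82% of genes changed 1.5-fold and 2-fold were recovered for ozone at day 1, and 38% and 75% at day 4. The simulation changed far fewer genes than were called in the data, and only in the ozone group. Recovery in the data may therefore differ. Depth was 5.14 M to 9.72 M counts. Genes given over all 8 groups were a fixed list of 14, and from pathway lists at most 4 with the smallest p were named, from marker lists at most 3; others named in the text were called members or were chosen after their values were seen. A gene of the signal transduction list is not reported here.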

Additional observations from a re-analysis of the deposited data

Results flagged for a closer look

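In 3 cases a library stood apart from their day 1 group: the extreme library's gap to its nearest neighbour exceeded Dixon's 95% limit. Irf1 was highest in carbon black replicate 4 at 138.4 CPM, Psmb8 was lowest in carbon black replicate 3 at 47.8 CPM, and Isg15 was highest in co-exposure replicate 4 at 11.25 CPM. These were 3 of 64 sets of values looked at, and chance flags about 1 in 20 groups.

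In edgeR's test of the difference between days, the change against sham was higher at day 4 than at day 1 for Ddx58 with ozone, by 0.72 on the log2 scale. With co-exposure it was higher for Oas1a by 1.56, Dhx58 by 1.13, Ifit1 by 0.97 and Ddx58 by 0.62.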

How the results depend on the processing

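With only the compared groups fitted, the members called were 0 for carbon black at day 1, 16 for ozone and 10 for co-exposure at day 4, 6 for co-exposure against carbon black at day 4, and 3 for the ozone day difference. DESeq2 called 1 for carbon black at day 4 and 2 for the ozone day difference. Without a low-count filter carbon black at day 1 had 1. Without the 4 libraries with muscle transcripts, an alternative chosen after seeing the data, the counts were 14 for ozone and 21 for co-exposure at day 1, and 2 for carbon black and 9 for co-exposure at day 4. With medians over genes, the family shift at day 1 was 0.83 for carbon black, 0.13 for ozone and -0.12, a reversal, for co-exposure.

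Leaving out 1 library at a time gave 1 to 2 calls for carbon black, 13 to 25 for ozone and 20 to 32 for co-exposure at day 1, and 0 to 2, 4 to 11 and 6 to 17 at day 4. Co-exposure against ozone at day 4 gave 0 to 2 and against carbon black 5 to 14. Day differences gave 0 to 1 for carbon black, 0 to 2 for ozone and 2 to 5 for co-exposure. Family shifts ranged from 0.45 to 0.64, 0.28 to 0.41 and 0.24 to 0.41 at day 1 for carbon black, ozone and co-exposure, from 0.12 to 0.28, 0.29 to 0.47 and 0.51 to 0.89 at day 4, and from -0.09 to 0.08 and 0.12 to 0.50 for co-exposure against ozone at day 1 and day 4. The ozone day difference lost its call without sham day 4 replicate 2 or 3 or ozone day 4 replicate 2 or 3. The co-exposure day difference had 2 calls without sham day 1 replicate 2, sham day 4 replicate 2 or 3, co-exposure day 1 replicate 4 or co-exposure day 4 replicate 1. The causes were not tested.

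Whether replicate numbers pair the samples is not labelled. Same-numbered libraries had correlations of deviations from -0.25 to 0.37 at day 1 (median 0.05) and from -0.10 to 0.48 at day 4 (median 0.04). Libraries with other numbers had -0.23 to 0.21 (median -0.01) and -0.37 to 0.30 (median -0.02). The ranges overlap, so they do not settle the pairing. With the replicate block, carbon black had 1 call at each day, ozone 28 and 11, and co-exposure 33 and 17. Depth limits the low genes most, above all the interferon genes themselves, which could not be tested.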
